A study of Mus musculus with 12 samples.

Results

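Integrin and laminin subunit genes were followed through Bach1 silencing and differentiation in C2C12 cells, a mouse myoblast line that fuses into myotubes when serum is lowered. The members were all probes whose gene symbol is that of an integrin alpha subunit, an integrin beta subunit from Itgb1 to Itgb8, or a laminin alpha, beta or gamma chain. They were 94 probes of 37 genes, of 56605 probes and 27306 gene symbols on the array. Of the 37 genes, 26 encode integrin subunits (64 probes) and 11 encode laminin chains (30 probes), and a gene had 1 to 6 probes. The rule used gene names and no measured value, but the members were chosen with earlier results of these data known.

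Integrins are receptors of the cell surface made of an alpha and a beta subunit, and the pairing decides which ligand is bound. Laminins are basement membrane proteins made of an alpha, a beta and a gamma chain, and in muscle the fibre is anchored to them by the integrin that joins the alpha7 and beta1 subunits and by dystroglycan. The laminin alpha2 chain, encoded by Lama2, is the main alpha chain around muscle fibres, and its loss causes a muscular dystrophy.

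All cells were C2C12 and all were transfected with an siRNA, either siControl or siBach1, which targets the transcription repressor Bach1. The methods name a single Bach1 siRNA for the arrays, so effects of Bach1 loss and other effects of that siRNA cannot be told apart. RNA was taken at day 0, at confluence before the change to horse serum, or after 2 days in it, called day 2. Each of the 4 conditions had 3 replicates, and each replicate 1 array. The cells are a single clonal line and not muscle tissue, and neither the labels nor the methods say that the replicates were separate cultures, so p-values measure the spread between these samples, which may be technical. The 12 arrays had 47.6% to 58.9% of probes well above background and 0 saturated spots, and the Bach1 probe was lower in siBach1 cells by -1.77 at day 0 and -1.97 at day 2 on the log2 scale, without overlap of the arrays. All 5 myotube marker genes and 4 of 5 myoblast marker genes were above background on every array. Endothelial Cdh5, Kdr and Tek, epithelial Epcam, and the macrophage gene Adgre1 were above background on no array, while endothelial Pecam1 was on 11 and a Vwf probe on 6. The fibroblast genes Col1a1, Dcn and Pdgfra were above background on all 12 arrays, and Thy1 on none. Slide 1 held replicates 1 and 2 and slide 2 held replicate 3, and each condition had its own column on both, so that column and condition cannot be told apart.

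A level below is the log2 processed signal of a probe minus the 75th percentile of its array. Levels of different probes are not comparable, so each probe is compared only with itself. Tests were run on probes that the scanner called well above background throughout some condition, that is on all 3 of its arrays. This held for 51 of the 94 member probes (54.3%, against 52.4% of all probes), which stand for 27 genes, 18 integrin and 9 laminin. Of these 51 probes, 36 were above background on all 12 arrays, and the other 15 entered through the conditions in which they were brighter. A probe passed the test where the adjusted p of limma, over all 29664 probes tested, was under 0.05.

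The set of subunits that these cells expressed was wide. A total of 23 genes had a probe above background on all 12 arrays, among them Itgb1 and the beta genes from Itgb3 to Itgb8, the laminin receptors Itga3, Itga6 and Itga7, the fibronectin receptor Itga5, Itgav, and the laminin genes Lama2, Lama5, Lamb1, Lamb2, Lamb3 and Lamc1. Of the 10 genes with no tested probe, 6 were above background on no array, namely Itga2, Itga8, Itga9, Itgad, Itgax and Lama3. Itga1 was above background on 1 array, Itgae and Lama1 on 2 and Itga2b on 3, and both Lama1 arrays were siBach1 day 2. For these genes the signal gives only a bound, and no comparison was made. Leukocyte subunits were not all dark, since Itgal and Itgam had a probe on all 12 arrays and Itgb2 on 11. Beside them, 4 of the 6 leukocyte marker genes on the array had a probe on all 12 arrays. Over those 6 marker probes the mean level was -0.17 to 0.21 in siControl cells and -0.00 to 0.29 in siBach1 cells at day 0, and -0.23 to 0.34 and -0.45 to 0.33 at day 2. The Ptprc gene, which marks leukocytes, had 5 of its 7 probes above background on no array. Its probe A_55_P2716281 was above background on 4 arrays and A_55_P2716276 on all 12. Condition means of A_55_P2716276 ran from 1.36 (siControl, day 2) to 2.37 (siBach1, day 0). Silencing lowered both tested Cd68 probes at day 0, A_51_P120470 by -0.95 (adjusted p = 0.0022) and A_55_P1961943 by -0.48 (adjusted p = 0.018). Their day 2 differences, 0.34 and 0.16, did not pass. No other tested leukocyte marker probe passed a silencing test.

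Silencing of Bach1 changed a minority of the subunits, and by less than differentiation did. At day 0, 6 probes of 4 genes were higher and 6 probes of 4 genes lower in siBach1 cells, 11.8% of the 51 in each direction, where 8.8% of all tested probes were higher and 8.32% lower. At day 2, 5 probes of 4 genes were higher (9.80%, against 5.75% of all probes) and 6 probes of 5 genes lower (11.8%, against 6.26%). At least 2-fold by the fit were 1 member probe at day 0 (2.79% of all probes) and 3 at day 2 (2.17%), and the one at day 0 was a Lama4 probe too dim for its size to be read. The median member probe differed by 0.14 at day 0 and -0.07 at day 2 on the log2 scale, beside 0.09 and -0.01 over all tested probes. In total 16 probes of 12 genes passed on either day (31.4%, against 24.1% of all tested probes) and 7 on both (13.7%, against 5.0%). In each of these calls the siControl and siBach1 arrays did not overlap, which by itself fixes that the slides agree in sign. Of all probes called, 99.6% at day 0 and 99.7% at day 2 did not overlap either. With the replicate number as a block, 21 probes passed at day 0 in place of 12, the same 12 and 9 more, of which Itga3 and Itgb7 were lower and Lamc1 was higher. RNA came from whole cultures, so fewer cells of a kind and less RNA per cell cannot be told apart.

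**Figure D1:**
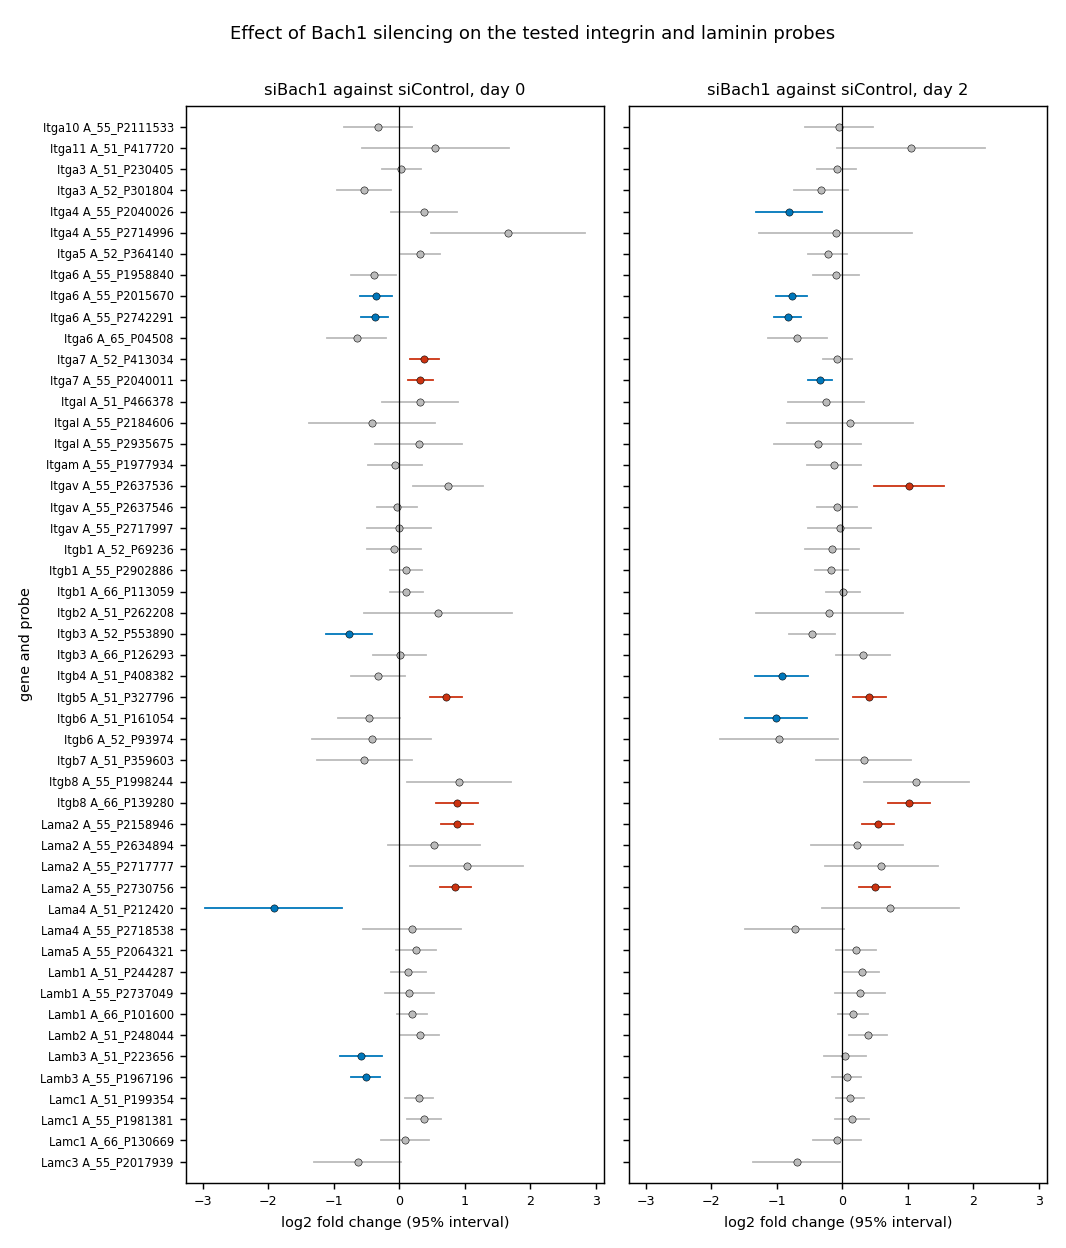
Log2 fold change of siBach1 against siControl cells at day 0 (left) and day 2 (right) for the tested probes, with 95% intervals from limma. Red points are higher and blue points lower at an adjusted p under 0.05, and grey points did not pass. Lama2, Itgb5 and Itgb8 are red on both days, and 2 probes of Itga6 are blue on both.

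Lama2, Itgb5 and Itgb8 were higher in siBach1 cells on both days. Lama2 is the muscle laminin chain, and Itgb5 and Itgb8 encode beta subunits that pair with alpha v, the first in a vitronectin receptor and the second in a receptor for latent TGF-beta. Levels of the Lama2 probe A_55_P2158946 at day 0 were 1.60, 1.67 and 1.87 in siControl and 2.61, 2.39 and 2.78 in siBach1 cells. At day 2 they were 3.08, 3.04 and 3.102 against 3.64, 3.55 and 3.65. The siBach1 arrays were all above the siControl arrays of their day. The difference was 0.88 (SE 0.11, adjusted p = 0.0005) at day 0, a 1.84-fold higher signal, and 0.54 (SE 0.11, adjusted p = 0.012) at day 2. A second Lama2 probe, A_55_P2730756, read -2.53, -2.30 and -2.49 against -1.45, -1.79 and -1.52 at day 0, and -1.20, -1.38 and -1.23 against -0.83, -0.77 and -0.75 at day 2. Both probes thus separated the conditions on each day, this one by 0.85 (adjusted p = 0.00051) and 0.49 (adjusted p = 0.016). Of the other tested Lama2 probes, A_55_P2634894 gave 0.53 at day 0 and 0.23 at day 2, and A_55_P2717777, which was below background on all siControl arrays at day 0, gave 0.60 at day 2. Neither passed on either day.

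Itgb5, with 1 probe, read 3.83, 3.68 and 3.84 in siControl and 4.53, 4.36 and 4.61 in siBach1 cells at day 0. At day 2 the levels were 4.62, 4.63 and 4.78 against 5.13, 4.89 and 5.26. All siBach1 arrays were again the higher ones. The difference was 0.72 (SE 0.11, adjusted p = 0.0017), or 1.64-fold, at day 0 and 0.41 (SE 0.11, adjusted p = 0.036) at day 2. The day 2 call was lost, at an adjusted p of up to 0.11, without any siControl day 2 array, without siBach1 day 2 replicate 1 or 3, or without replicate 1 of either day 0 condition.

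Itgb8 was read by the probe A_66_P139280 at -2.14, -2.03 and -2.24 in siControl and -1.01, -1.25 and -1.50 in siBach1 cells at day 0. At day 2 the levels were -0.86, -1.27 and -0.86 against 0.11, -0.03 and -0.03. The siBach1 arrays at day 0 thus lay about where the siControl arrays lay at day 2. The difference was 0.88 (SE 0.14, adjusted p = 0.0024) at day 0 and 1.02 (SE 0.14, adjusted p = 0.0023) at day 2, a 2.02-fold higher signal. The probe was designed on the transcript record AK052777, and the dimmer probe A_55_P1998244, designed on the reference transcript, gave 0.91 (adjusted p = 0.11) and 1.13 (adjusted p = 0.07). Calls for both Lama2 probes and Itgb8 on both days, and for Itgb5 at day 0, were kept in all 12 fits that left out 1 array.

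The starts of these 3 genes, which moved together on both days, are printed below with that of Itgb6, which went the other way at day 2. Itgb6 has a second start in the table, at chr2:60673694-60673943 on the minus strand, which held CACCTG and no TGACNNNGC and is not printed. Each is the stretch of 250 bases before the transcription start from RefSeq (GRCm38.p6), written 5′ to 3′ on the strand of the gene. Lama2 lies at chr10:27616943-27617192 on the minus strand, Itgb5 at chr16:33829415-33829664 on the plus strand, Itgb8 at chr12:119238277-119238526 on the minus strand and Itgb6 at chr2:60722604-60722853 on the minus strand. Capitals mark matches on either strand to TGACNNNGC, the core read by Bach1 with small Maf proteins, to the AP-1 core TGAGTCA, and to the E-boxes CAGCTG and CACCTG. No match overlapped another motif in these stretches.
Lama2: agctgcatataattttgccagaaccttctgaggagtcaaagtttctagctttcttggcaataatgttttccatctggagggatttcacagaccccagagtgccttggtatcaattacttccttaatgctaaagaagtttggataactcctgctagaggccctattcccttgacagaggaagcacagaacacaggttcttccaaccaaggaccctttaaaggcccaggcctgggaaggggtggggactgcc
Itgb5: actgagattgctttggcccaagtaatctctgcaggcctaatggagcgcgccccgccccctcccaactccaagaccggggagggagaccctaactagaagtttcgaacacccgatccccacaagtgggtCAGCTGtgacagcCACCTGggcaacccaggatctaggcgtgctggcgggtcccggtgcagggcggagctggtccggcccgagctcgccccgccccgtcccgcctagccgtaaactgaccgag
Itgb8: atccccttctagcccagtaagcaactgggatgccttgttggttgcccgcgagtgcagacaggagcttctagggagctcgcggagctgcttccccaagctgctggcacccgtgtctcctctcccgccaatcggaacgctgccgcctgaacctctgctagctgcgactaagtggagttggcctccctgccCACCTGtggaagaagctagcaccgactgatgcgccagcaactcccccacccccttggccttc
Itgb6: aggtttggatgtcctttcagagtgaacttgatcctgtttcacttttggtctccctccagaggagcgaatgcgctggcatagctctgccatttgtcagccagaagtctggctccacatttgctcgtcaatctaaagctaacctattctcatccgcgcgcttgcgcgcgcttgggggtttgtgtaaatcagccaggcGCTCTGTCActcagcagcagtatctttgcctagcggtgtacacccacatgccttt
The capitals in Itgb5 are the E-boxes CAGCTG and CACCTG, that in Itgb8 is CACCTG, and that in Itgb6 is TGACNNNGC read on the other strand, 55 bases before the start. Lama2 held none of the 4 motifs. The table held 26 starts of 23 member genes. Over the longer window that also takes the 50 bases after each start, TGACNNNGC was in 4 of the 26 (15.4%), those of Itga9, Itgax, Itgb1 and Itgb6, and in 12.4% of the 32851 starts of all genes. TGAGTCA was in 7.69% of member starts and 5.20% of all, CAGCTG in 30.8% and 16.3%, and CACCTG in 30.8% and 20.2%. A match is a description of letters, and binding was not measured.

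**Figure D2:**
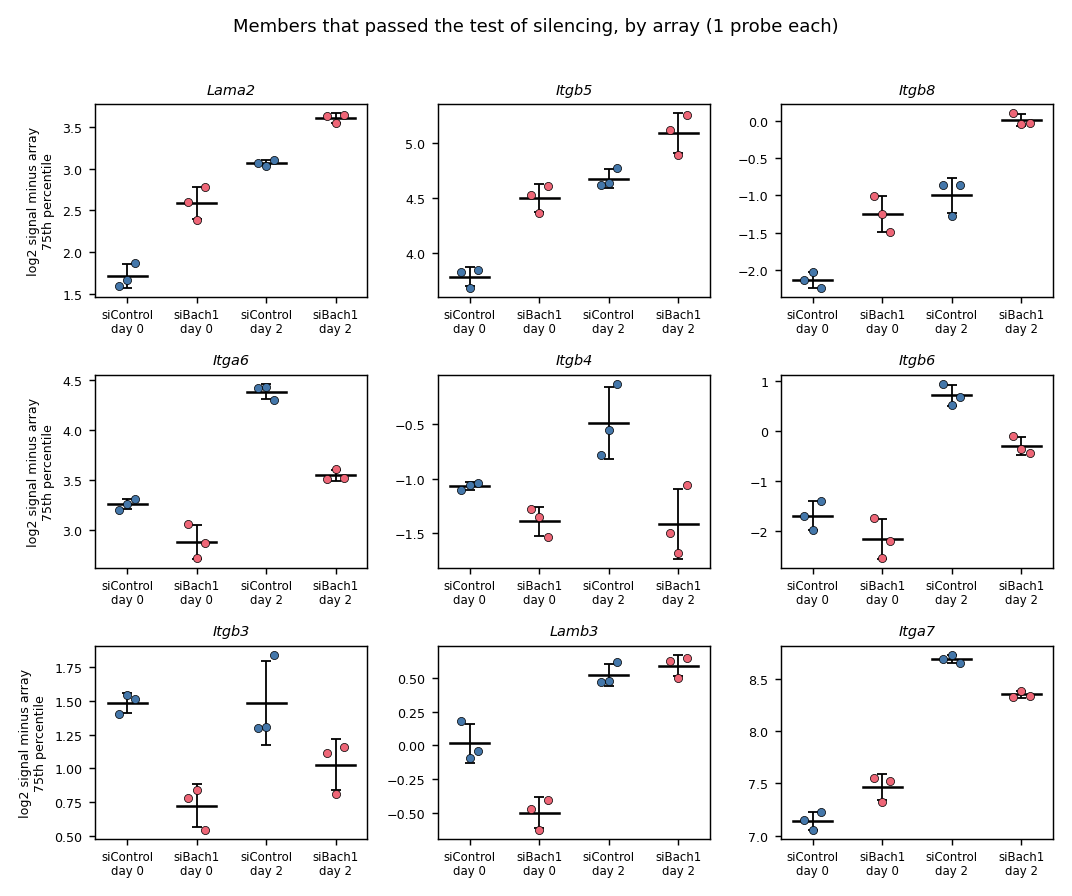
Level of 9 members (1 probe each) on each of the 12 arrays, as log2 signal minus the 75th percentile of the array. Points are arrays in the order of replicate, horizontal lines are means and bars are 1 SD (n = 3), with siControl in blue and siBach1 in red. Lama2, Itgb5 and Itgb8 lie higher in siBach1 cells on both days, Itga6, Itgb4 and Itgb6 lie lower at day 2, and Itga7 changes side between the days.

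Among the receptors for laminin, Itga6 was lower in siBach1 cells, Itga7 changed direction between the days and Itga3 did not pass. Itga6 encodes a laminin receptor subunit that pairs with beta1 or beta4. Its probe A_55_P2742291 read 4.42, 4.43 and 4.30 in siControl and 3.52, 3.62 and 3.52 in siBach1 cells at day 2. Its day 0 readings were 3.21, 3.27 and 3.31 against 3.06, 2.72 and 2.87. The arrays were tight and apart on both days, and farther apart at day 2. The difference was -0.83 (SE 0.09, adjusted p = 0.0007) at day 2, which is 1.78-fold lower, and -0.38 (SE 0.09, adjusted p = 0.022) at day 0. The probe A_55_P2015670 read 5.86, 5.92 and 5.56 against 4.99, 5.04 and 4.98 at day 2, and 4.45, 4.53 and 4.74 against 4.23, 4.22 and 4.21 at day 0. Here too all siBach1 arrays were below, by -0.77 (adjusted p = 0.0019) and -0.36 (adjusted p = 0.045). The third tested probe gave -0.68 at day 2 and -0.65 at day 0 (adjusted p = 0.05 for both, just over the limit), and the fourth, on another transcript record, gave -0.10 and -0.39. The day 2 calls were kept whichever array was left out. The day 0 call of A_55_P2742291 was lost without replicate 2 or 3 of either day 0 condition (adjusted p up to 0.073), and that of A_55_P2015670 in 10 of the 12 fits (up to 0.13), all but those without siControl day 2 replicate 2 or 3.

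Itga7 encodes the alpha subunit of the main laminin receptor of muscle. Its probe A_55_P2040011 read 7.15, 7.05 and 7.23 in siControl and 7.55, 7.32 and 7.52 in siBach1 cells at day 0. At day 2 the order was turned, with 8.69, 8.72 and 8.65 in siControl and 8.33, 8.38 and 8.33 in siBach1 cells. The groups did not overlap on either day. The difference was 0.32 (SE 0.08, adjusted p = 0.025) at day 0 and -0.34 (SE 0.08, adjusted p = 0.027) at day 2, so both were small, 1.25-fold higher and 1.26-fold lower. The other probe, A_52_P413034, read 3.31, 3.14 and 3.34 against 3.80, 3.68 and 3.46 at day 0 and gave 0.38 (adjusted p = 0.028). At day 2 it gave -0.07, with an interval of -0.30 to 0.15, and did not pass. The call at day 2 was lost without any of the 6 day 2 arrays (adjusted p up to 0.09) and under quantile normalization. At day 0 the calls were lost under quantile normalization too, and without siControl replicate 1 or 2 or siBach1 replicate 1, and for A_52_P413034 without siBach1 replicate 2 and for A_55_P2040011 without siBach1 replicate 3 (adjusted p up to 0.11). Itga3, a receptor for epithelial laminin, gave -0.54 (adjusted p = 0.07) at day 0 and -0.33 at day 2 with its probe A_52_P301804, and 0.03 and -0.08 with A_51_P230405.

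Of the beta subunits, Itgb4 and Itgb6 were lower at day 2 and Itgb3 was lower at day 0. Itgb4 pairs with alpha6 in the hemidesmosomes of epithelia, and Itgb6 pairs with alpha v in a receptor for latent TGF-beta. Itgb4 read -0.78, -0.55 and -0.13 in siControl and -1.50, -1.68 and -1.06 in siBach1 cells at day 2. Its groups lay apart, although each spread widely. The difference was -0.92 (SE 0.18, adjusted p = 0.011), and -0.32 (adjusted p = 0.27) at day 0. Itgb6 (A_51_P161054) read 0.95, 0.53 and 0.68 against -0.09, -0.35 and -0.43 at day 2. Its siBach1 arrays were all lower, by -1.01 (SE 0.21, adjusted p = 0.014), which is 2.01-fold. The Itgb6 call was lost without siControl day 2 replicate 1 (adjusted p = 0.054), and the second, dim probe gave -0.96 (adjusted p = 0.16). At day 0 the levels of Itgb6 were -1.70, -1.98 and -1.40 against -1.75, -2.54 and -2.20, which overlapped.

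Epithelial markers were read beside these genes. Epcam was above background on no array, and Krt14 was the 1 gene of the 6 on all arrays. At day 0, where Lamb3 passed, both Krt8 probes were higher in siBach1 cells, by 1.70 (adjusted p = 0.026) and 2.09 (adjusted p = 0.0012), and Cdh1 by 0.99 (adjusted p = 0.0097), from means of -4.40, -4.99 and -6.38 in siControl cells. The list thus moved up at day 0 in 3 of its 4 tested probes. At day 2 Krt14 was at -0.70 to 0.07 in siControl and 0.84 to 1.58 in siBach1 cells, higher by 1.50 (adjusted p = 0.0076), while Itgb4 and Itgb6 were lower. There the Krt8 probes gave 1.44 and 0.44 and Cdh1 -0.13 and did not pass, and the untested Krt5 had means of -3.31 and -4.75 and Krt18 of -5.81 and -6.31. The mean level over 7 myotube marker probes was 7.21 to 7.39 in siControl and 6.66 to 6.95 in siBach1 cells at day 2. Of these probes only that of Myog passed, with -0.98 (adjusted p = 0.016). The part of either marker list in the differences of either day was not tested.

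Itgb3 encodes another partner of alpha v, which also pairs with the alpha IIb subunit of platelets. Its probe A_52_P553890 read 1.41, 1.54 and 1.52 in siControl and 0.78, 0.84 and 0.54 in siBach1 cells at day 0, without overlap. The difference was -0.77 (SE 0.16, adjusted p = 0.0083), kept in all fits that left out 1 array. At day 2 the levels were 1.30, 1.31 and 1.84 against 1.11, 0.81 and 1.16, a difference of -0.46 (adjusted p = 0.09). The second probe of the gene, A_66_P126293, gave 0.00 at day 0, with an interval of -0.40 to 0.41, and 0.32 at day 2, so that the 2 probes disagreed.

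Itga4 and a dim Itgav probe passed at day 2 only. Itga4, whose product binds VCAM1 and fibronectin, read 1.64, 1.68 and 1.65 in siControl and 0.81, 1.11 and 0.62 in siBach1 cells at day 2. All siBach1 arrays were lower, by -0.81 (SE 0.23, adjusted p = 0.044), while at day 0 the difference was 0.38 (adjusted p = 0.29) with overlapping arrays. A second, dim Itga4 probe, A_55_P2714996 on the record AK041096, did not show the day 2 fall, with -0.10 (adjusted p = 0.94) and an interval of -1.27 to 1.07. At day 0 it was above background on 0 of 3 siControl and 2 of 3 siBach1 arrays, and the arrays overlapped. It did not pass without the block (adjusted p = 0.057, against 0.036 with the replicate block), with an interval of 0.48 to 2.82. With siControl arrays below the dimmest detected probes set to that signal, its siBach1 mean was 1.83-fold the siControl mean. The Itgav probe A_55_P2637536, designed on the record BC021600, read -4.02, -4.27 and -4.52 against -3.20, -3.49 and -3.06 at day 2, higher by 1.02 (adjusted p = 0.022). It was well above background on only 1 of the 3 siControl arrays of that day, and under a normexp background correction the call was lost. The bright Itgav probe, A_55_P2637546, gave -0.04 at day 0 and -0.08 at day 2, with intervals of -0.34 to 0.27 and -0.39 to 0.23. Leaving out 1 array ended the Itga4 call in 9 of 12 fits, those without any day 2 array, siControl day 0 replicate 1 or 2, or siBach1 day 0 replicate 2 (adjusted p up to 0.13). It ended the Itgav call without siBach1 day 2 replicate 1 or 3 or siControl day 2 replicate 2 or 3 (adjusted p up to 0.074).

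In the laminins, Lamb3 was lower in siBach1 cells at day 0 and not at day 2. Lamb3 encodes the beta chain of the laminin of epithelial basement membranes. The probe A_55_P1967196 read 0.18, -0.09 and -0.04 in siControl and -0.47, -0.63 and -0.40 in siBach1 cells at day 0. The second, A_51_P223656, read -1.09, -1.18 and -0.85 against -1.56, -1.71 and -1.61. On both probes the siBach1 arrays were the lower ones, by -0.52 (SE 0.10, adjusted p = 0.0057) and -0.59 (SE 0.14, adjusted p = 0.018). At day 2 the differences were 0.07 and 0.04, with intervals of -0.15 to 0.29 and -0.27 to 0.36, and the arrays overlapped. The A_51_P223656 call was lost without siControl day 0 replicate 3 or siBach1 day 0 replicate 2 (adjusted p up to 0.063).

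Lama4, a chain of vessel and muscle laminins, was lower at day 0 by the fit, at -5.84, -3.64 and -4.05 in siControl and -6.44, -6.66 and -6.17 in siBach1 cells. Its probe A_51_P212420 was well above background on 2 of the 3 siControl arrays and on 0 of the 3 siBach1 arrays. The adjusted p was 0.02, but the siControl mean was not above the floor set by the dimmest detected probes of the siBach1 arrays. No fold is therefore given. The call was lost without siControl replicate 2 or 3 or siBach1 replicate 1 or 2 of day 0 (adjusted p up to 0.07) and with normexp. At day 2 the probe was above background on all 6 arrays and the difference was 0.73 (adjusted p = 0.36). The second tested Lama4 probe, A_55_P2718538, differed by 0.20 (adjusted p = 0.75) at day 0 and -0.73 (adjusted p = 0.2) at day 2, with signs opposite to those of the first.

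The other 15 tested genes passed on neither day in the fit without the block, and their intervals say how large a difference these arrays left room for in that fit. With the replicate block, Itga3, Itgb7 and Lamc1 of these passed at day 0, as given above. At day 2 Itga11, Lamb1 and Lamb2 were added, all higher in siBach1 cells, by 1.05 (adjusted p = 0.033), 0.30 on 1 of 3 probes (adjusted p = 0.042) and 0.39 (adjusted p = 0.035). Itgb1, the beta subunit that most alpha subunits here pair with, gave 0.10 and 0.11 at day 0 and -0.17 and 0.01 at day 2 on its 2 bright probes. The intervals all lay between -0.42 and 0.36. Itga5 gave 0.32 (0.03 to 0.62) and -0.22 (-0.52 to 0.07). Lama5, in many basement membranes, gave 0.26 and 0.21 with intervals from -0.10 to 0.57. Lamb1 and Lamc1, the chains found with most alpha chains, gave 0.14 to 0.19 and 0.08 to 0.38 at day 0 and 0.17 to 0.30 and -0.08 to 0.15 at day 2. Lamb2, the beta chain of mature muscle and synapses, gave 0.31 and 0.39 (adjusted p = 0.14 and 0.08). The widest intervals were those of Itga11 and Itgb2, and Itgb2 in siBach1 cells at day 0 ran from -4.12 to -1.74.

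A test of whether the effect of silencing itself differed between the days was passed by 2 member probes, 1 in each direction, where 2.39% of all probes were more positive and 2.2% more negative at day 2, and 1.44% passed at 2-fold or more. The Itga7 probe A_55_P2040011 differed by -0.66 (SE 0.12, adjusted p = 0.017) and the Lamb3 probe A_55_P1967196 by 0.59 (SE 0.14, adjusted p = 0.044). The median member probe differed by -0.10, against -0.07 for all tested probes. The Lamb3 call was lost whichever of the 12 arrays was left out (adjusted p = 0.052 to 0.11), and that of Itga7 without siBach1 day 2 replicate 1 (adjusted p = 0.051). With the replicate block 6 probes passed, the same 2 and probes of Itga4, Itgb7, Lama4 and the second of Lamb3.

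Differentiation changed far more of the subunits, and mostly upward. From day 0 to day 2 in siControl cells 27 probes of 16 genes rose and 3 probes of 3 genes fell. That is 52.9% and 5.88% of the 51, where 24.6% of all tested probes rose and 28.7% fell. At least 2-fold were 21 member probes (41.2%, against 20.0% of all). In siBach1 cells 24 probes of 15 genes rose and 6 probes of 6 genes fell, 47.1% and 11.8%, against 23.8% and 32.3% of all probes, with 16 at 2-fold or more (31.4%, against 20.5%), dim probes included. The median change of the member probes was 0.58 in siControl and 0.59 in siBach1 cells, beside 0.00 and -0.07 for all tested probes. Of the probes that passed, 27 did so in both siRNAs, 24 upward (47.1%, against 18.5% of all tested probes) and 3 downward (5.88%, against 24.1%). Over the 36 probes above background on all 12 arrays, 20 passed in siControl (55.6%, against 55.1% of all such probes) and 22 in siBach1 cells (61.1%, against 57.8%). Among these probes the share that passed in either direction was thus near that of the array. Shares by direction and at 2-fold were not counted over these probes. The shares given above include probes that entered through the conditions in which they were brighter. Of the members 36 of 51 were above background on all 12 arrays, and of all tested probes 24801 of 29664. Fibroblast markers rose over the same days, with 5 of 5 probes on all arrays higher in siControl cells at day 2, Dcn by 5.23, Col1a1 by 2.46 to 2.70 and Pdgfra by 0.38. Their mean level was 1.33 to 1.58 at day 0 and 4.03 to 4.19 at day 2 in siControl cells, and 0.97 to 1.39 and then 4.18 to 4.41 in siBach1 cells, while Thy1 was above background on no array. All 7 myotube marker probes rose too in siControl cells. Of the endothelial genes a Vwf probe rose by 2.63 and Pecam1 changed by -0.27 (adjusted p = 0.46), with Cdh5, Kdr and Tek on no array. Of 6 leukocyte marker probes on all arrays, 1 rose, of Csf1r by 0.74, and 2 fell, of Cd68 by -1.14 and Ptprc by -0.79. Of the epithelial genes Krt14 fell by -2.64 and Cdh1 rose by 2.65, and the Krt8 probes did not pass. The part of these markers in the changes of the subunits was not tested. The comparisons over days use the same arrays as the silencing comparisons, so they are not independent of them.

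**Figure D3:**
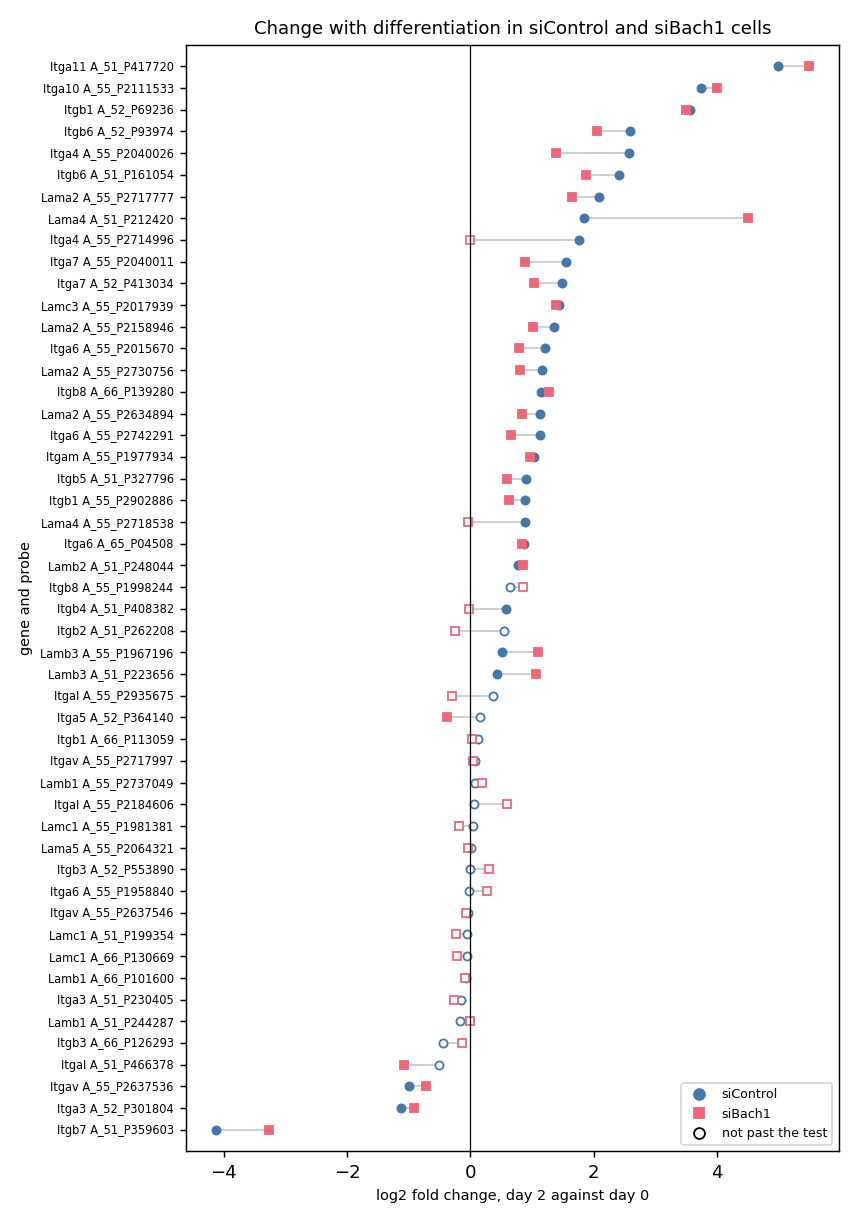
Log2 fold change from day 0 to day 2 for the tested probes, ordered by the change in siControl cells (blue circles), with siBach1 cells as red squares. Filled marks passed at an adjusted p under 0.05 and open marks did not. Itga11, Itga10 and an Itgb1 probe stand at the top and Itgb7 alone far to the left.

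Itga11 and Itga10, which encode collagen-binding subunits, had the largest rises in siControl cells. Itga11 read -3.57, -4.64 and -3.89 at day 0 and 1.34, 0.24 and 1.28 at day 2 in siControl cells, and -3.54, -4.51 and -2.40 and then 2.27, 1.59 and 2.15 in siBach1 cells. It rose by 4.98 (SE 0.51, adjusted p = 1.5e-05) and 5.49 (adjusted p = 7.5e-06), from a day 0 signal that was above background on 2 of 3 arrays of either siRNA. Itga10 read -2.72, -2.35 and -3.23 at day 0 and 1.06, 0.83 and 1.00 at day 2 in siControl cells. It rose by 3.73 (SE 0.23, adjusted p = 6.6e-07), which is 13.3-fold, and 16.0-fold in siBach1 cells, at -2.75, -3.02 and -3.51 and then 1.07, 0.73 and 0.94. Itga1 and Itga2, of the same group, stayed at or below 1 array above background.

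The steepest fall was that of Itgb7, the beta subunit that pairs with alpha4 or alphaE on lymphocytes. It read 2.03, 2.19 and 2.64 at day 0 and -2.09, -2.03 and -1.39 at day 2 in siControl cells. In siBach1 cells it read 1.49, 1.74 and 2.03 and then -1.89, -1.90 and -0.72. All 12 arrays were above background, and the days lay far apart in both siRNAs. The fall was -4.12 (SE 0.33, adjusted p = 2.8e-06), 17.4-fold, in siControl cells and -3.26 (adjusted p = 1.3e-05) in siBach1 cells. Itga4, a partner of this subunit, went the other way, from -0.70, -0.73 and -1.31 to the day 2 levels above, by 2.57 (SE 0.23, adjusted p = 5.8e-06) in siControl cells. In siBach1 cells it started at -0.11, -0.53 and -0.96 and rose by 1.38 (adjusted p = 0.00041). The dim second probe of Itga4 was at least 1.96-fold higher at day 2 in siControl cells (adjusted p = 0.016) but changed by -0.00 in siBach1 cells, with an interval of -1.17 to 1.17, so that the probes disagreed there.

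Itgb1 gave different answers by probe. The probes A_66_P113059 and A_55_P2902886, both on the same reference transcript, changed by 0.12 and 0.89 in siControl cells, of which only the second passed (adjusted p = 7e-05). The probe A_52_P69236, designed on the record U37029, read -4.99, -5.33 and -5.17 at day 0 and -1.75, -1.40 and -1.63 at day 2 in siControl cells. It was well above background on 0 of 3 arrays at day 0 and on 3 of 3 at day 2 in both siRNAs. Against the floor of detection its signal was at least 7.93-fold higher at day 2 in siControl cells (adjusted p = 2e-07) and at least 6.15-fold higher in siBach1 cells (adjusted p = 2.4e-07), where it read -5.14, -5.35 and -5.24 and then -1.47, -1.58 and -2.22. Between the siRNAs it differed by -0.16 at day 2, with an interval of -0.57 to 0.25. Itgb1 is known to have a splice form of striated muscle, and the files do not say which form a probe reads.

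**Figure D4:**
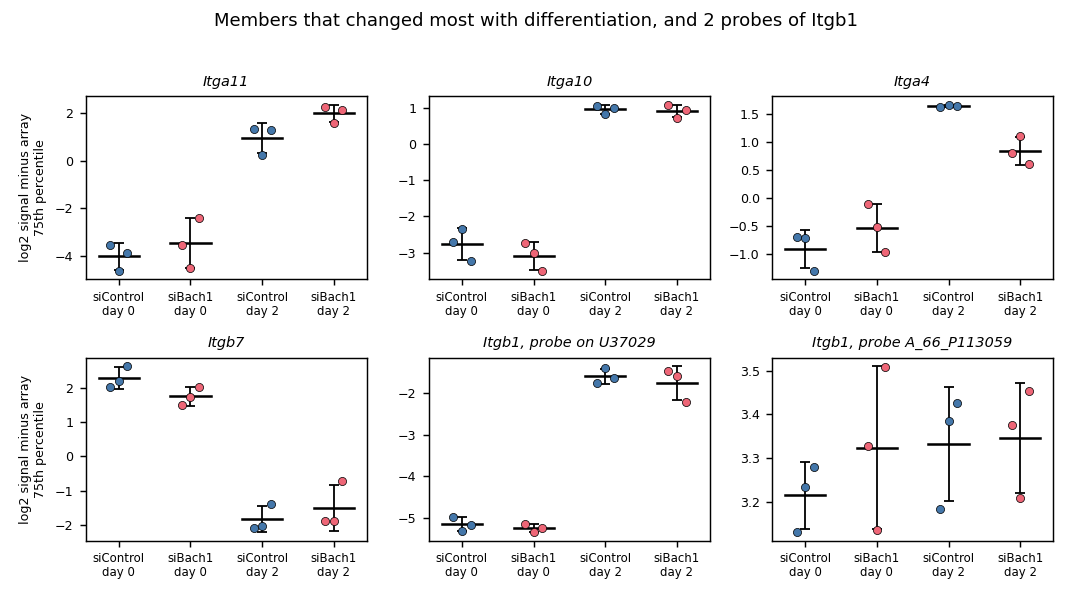
Levels on each of the 12 arrays of Itga11, Itga10, Itga4 and Itgb7, and of 2 Itgb1 probes, as log2 signal minus the 75th percentile of the array, with means and bars of 1 SD (n = 3). The Itgb1 probe on U37029 rises from below background while the other stays near 3.21 to 3.35.

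The laminin receptor genes Itga6 and Itga7 and the muscle laminin gene Lama2 rose, and Itga3 fell. Itga7 rose by 1.54 (SE 0.08, adjusted p = 2.5e-07) and 1.48 on its 2 probes in siControl cells and by 0.88 and 1.03 in siBach1 cells. Itga6 rose by 1.12 and 1.20 on the probes described above in siControl cells, and by 0.66 and 0.79 in siBach1 cells. The third probe rose by 0.86 and 0.83, and the fourth, A_55_P1958840, above background on all arrays, changed by -0.02 (adjusted p = 0.93) and 0.27 (adjusted p = 0.17). Itga3 fell, at 1.41, 1.64 and 1.94 and then 0.48, 0.39 and 0.75 in siControl cells, by -1.13 (SE 0.18, adjusted p = 0.00043), and at 1.05, 1.15 and 1.17 and then 0.16, -0.10 and 0.59 in siBach1 cells, by -0.91. Its second probe did not pass. All 4 tested Lama2 probes rose in both siRNAs. The 3 above background on all arrays rose by 1.13 to 1.36 in siControl and 0.81 to 1.02 in siBach1 cells, and the fourth was at least 2.12-fold higher in siControl cells.

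Lama4 rose from the dim day 0 signal given above to -2.55, -2.56 and -2.87 in siControl and -1.50, -2.39 and -1.90 in siBach1 cells. In siControl cells the probe passed (adjusted p = 0.0068). No single size is given there, because only 2 of 3 day 0 arrays were above background and the alternatives ranged from 0.92 to 2.28. In siBach1 cells, where no day 0 array was above background, the signal was at least 5.46-fold higher. The second Lama4 probe also passed in siControl cells (adjusted p = 0.047), with overlapping arrays, but changed by -0.04 (adjusted p = 0.93) in siBach1 cells. Lamc3 passed upward in siControl (adjusted p = 0.002) and siBach1 cells, but it was above background on only 1 of 3 arrays of either siRNA at day 0 and entered the test through siControl day 2, so no size is given. Lamb2 rose by 0.78 (adjusted p = 0.00059) in siControl cells, and passed in siBach1 cells as well. Lamb3 rose by 0.51 and 0.43 in siControl cells and by 1.09 and 1.06 in siBach1 cells. Lamb1, Lamc1 and Lama5 passed in neither siRNA.

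Other beta subunits rose, Itgb6 by 2.41 (SE 0.21, adjusted p = 5.8e-06), Itgb8 by 1.14, Itgb5 by 0.90 and Itgb4 by 0.58 in siControl cells. In siBach1 cells the first 3 rose by 1.87, 1.27 and 0.60, and Itgb4 did not pass. Itgam rose by 1.04 on 1 probe, and its other probe was above background on 4 arrays only. The dim Itgav probe fell, by -0.99 (adjusted p = 0.0051) in siControl and -0.72 (adjusted p = 0.025) in siBach1 cells. The bright Itgav probe changed by -0.03 (adjusted p = 0.87) and -0.08 (adjusted p = 0.67), and the third tested, A_55_P2717997, by 0.08 and 0.04 without passing. A fall was also seen for 1 of 3 Itgal probes in siBach1 cells, by -1.07 (adjusted p = 0.005). Itga5 passed downward in siBach1 cells, by -0.38 (adjusted p = 0.03), and not in siControl cells. The difference between the siRNAs is the test of days above, which it did not pass.

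Genes that work with these subunits were counted by probe in 3 lists, which were chosen with earlier results of these data known. Of 17 basement membrane partners (30 probes), 3 probes were higher (10.0%) and 1 lower (3.33%) at day 0 in siBach1 cells, against 8.8% and 8.32% of all tested probes. At day 2, 7 were higher (23.3%) and 1 lower (3.33%), against 5.75% and 6.26%. Nid2 and Nid1, which link laminin to collagen IV, were higher at day 2 by 0.90 (adjusted p = 0.016) and 0.47 (adjusted p = 0.011), and the collagen gene Col4a2 by 0.64 at day 2 and 0.73 at day 0. Dag1, which encodes dystroglycan, the laminin receptor that is no integrin, was lower by -1.33 (SE 0.09, adjusted p = 2e-05) at day 0 and -0.79 (adjusted p = 0.00093) at day 2. The median of the list was 0.12 and 0.04, beside 0.09 and -0.01 for all tested probes.

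Of the other integrin ligands, 16 of 18 genes were tested with 29 probes, of which 4 were higher (13.8%) and 3 lower (10.3%) at day 0 and 1 higher and 1 lower (3.45% each) at day 2, below the shares of all probes at day 2. Thbs1, for thrombospondin, was higher by 0.90 and 1.23 at day 0, and Tnc, for tenascin C, was lower by -1.15 and -1.01. Vcam1, a ligand of the alpha4 subunit, was higher by 0.68 (adjusted p = 0.0037) at day 0. The list had medians of -0.05 and 0.10.

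The third list held integrin activators, adaptors and focal adhesion proteins, with tetraspanins among them. Of 26 tested genes with 46 probes, 1 probe was higher (2.17%) and 8 were lower (17.4%) at day 0, against 8.8% and 8.32% of all probes, and 1 was higher (2.17%) and 9 lower (19.6%) at day 2, against 5.75% and 6.26%, with medians of 0.00 and -0.07. Vcl, for vinculin, was lower by -0.89 (adjusted p = 0.00033) and -0.60 (adjusted p = 0.006). The largest fall was that of Parvb, for beta-parvin, with -2.74 at day 0 and -1.95 at day 2 on its probe A_51_P198645. The adaptor gene Lims1 was lower by -1.19 and -1.14 at day 0, and Pxn, for paxillin, by -0.70 and -0.47 at day 2. The tetraspanins Cd9 and Cd151, which associate with laminin-binding integrins, were lower at day 2 by -0.60 (adjusted p = 0.0027) and -0.42 (adjusted p = 0.011). Tln2, a talin that activates integrins, was the gene that was higher, by 0.45 and 0.38.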

How the data were processed

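RNA of 12 C2C12 samples, 3 for each of siControl and siBach1 at day 0 and day 2, was measured on 12 one-colour Cy3 Agilent arrays. The authors deposited, from the scanner, an intensity for each spot, in which the processed signal has had background subtracted, with flags for outlier, saturated and well above background spots. The submitters' processing notes name Feature Extraction 9.1 and the file headers 10.7.3.1. The deposited table also holds normalized log2 values, which were used as an alternative. Once the median of each probe over the 12 arrays was subtracted, the values used here differed from them by a median of 0.00096.

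Control spots and outlier-flagged spots (76 to 110 per array) were removed, repeated spots averaged as log2 values, and the 75th percentile of the array (a signal of 325.5 to 534.4) subtracted. Probes well above background on all 3 arrays of a condition were tested (29664 of 56605). A single limma fit (3.58.1, R 4.3.3) held the 4 conditions with no block, and p-values were adjusted by the Benjamini-Hochberg method over all tested probes. Python 3.11.15, pandas 2.3.3 and numpy 2.4.6 read the files. The limma fit alone was run on simulated data, with 100 probes changed by 1 and 100 by 2 on the log2 scale at day 2. Of these, 67% and 88% passed, so changes of such sizes can be missed. A probe below background on every array of a group was given a bound against the lowest signal among detected probes of each array. Such a bound compares means and holds no margin for the spread of the arrays. Residuals of arrays that share a replicate number correlated in all 18 pairs, at 0.142 to 0.595, over the limit of 0.1. The numbers were therefore taken as pairing in an alternative fit, while calls given here without mention of the block come from the fit without it. Arrays of replicates 1 and 2, both on slide 1, also correlated across numbers between conditions, at 0.10 to 0.26. Those of replicate 3 correlated negatively with both, at -0.44 to -0.24. Because arrays of a number also share a slide and row, the cause of the pairing was not tested. The number of arrays limits the precision.

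1 member gene is counted in the totals and is otherwise not reported here, in text or figures. Array values are given for member probes past a silencing test and for the genes that rose or fell most in siControl cells, up to 6 each way, of which 2 falls met the rule for naming. Members, lists, cell type markers and motifs were chosen with earlier results of these data known. Gene symbols are those of the deposited table, and promoter stretches come from RefSeq. Alternatives were other normalizations, background corrections, filters, blocks, slides, tests, each array left out in turn and 1 probe per gene. Probe sequences were not used here.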

Additional observations from a re-analysis of the deposited data

Results flagged for a closer look

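The effect of silencing differed between the days for 2 member probes by limma's test of the difference. For the Itga7 probe A_55_P2040011 the difference, day 2 minus day 0, was -0.66 (adjusted p = 0.017), from 0.32 at day 0 to -0.34 at day 2, with all siBach1 arrays above at day 0 and below at day 2. This call was lost under quantile normalization, with no filter, on slide 1 alone and without siBach1 day 2 replicate 1. The second Itga7 probe went from 0.38 to -0.07 and did not pass the test of days (-0.45, adjusted p = 0.099). For the Lamb3 probe A_55_P1967196 the difference was 0.59 (adjusted p = 0.044), from -0.52 to 0.07, and this call was lost whichever of the 12 arrays was left out. The second Lamb3 probe went from -0.59 to 0.04 and did not pass the test of days. The mean level of 7 myotube marker probes at day 2 was 6.66 to 6.95 in siBach1 and 7.21 to 7.39 in siControl cells, where only the Myog probe passed (adjusted p = 0.016). Of the myoblast markers, Cdh15 went from 0.45 at day 0 to -0.26 at day 2, a difference of -0.71 (adjusted p = 0.014). The Ncam1 probe A_52_P613255 went from 0.21 to -0.42, a difference of -0.63 (adjusted p = 0.032). The other tested myoblast marker probes did not pass the test of days. The part of these markers in the differences was not tested.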

How the results depend on the processing

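No value of a named probe changed sign under an alternative. Of 847 such values 126 no longer passed, and 12, from slide 2 alone, which has no test, moved by more than 1 SD. The other 709 kept their direction, and kept their side of the threshold or, on slide 2 alone, stayed within 1 SD. The number of member probes past the test moved as follows. At day 0 (12 probes) it was 6 with no filter, 21 with the replicate block, 21 with slide as a block, 5 with the methods' t-test after Benjamini-Hochberg adjustment and 1 at 2-fold or more, and 8 to 14 with 1 array left out. At day 2 (11) it was 5 with no filter, 7 on slide 1 alone, 5 with the methods' t-test after Benjamini-Hochberg adjustment and 3 at 2-fold or more. Leaving out 1 array gave 7 to 11, the lowest without siBach1 day 2 replicate 1 or 3. The replicate block gave 16 at day 2, 33 and 34 in the siControl and siBach1 differentiation (30 each), and ended no call. Differentiation gave 18 with 1 probe per gene in siControl cells, where fewer probes were tested, and 16 at 2-fold or more in siBach1 cells, and 27 to 30 and 27 to 31 with 1 array left out. The difference of days (2) gave 1 with quantile normalization, 0 with no filter, 6 with the replicate block, 8 with slide as a block, 0 on slide 1 alone, 5 with a robust limma-trend, 12 with the unadjusted t-test, 4 with 1 probe per gene, 0 at 2-fold or more, and 0 to 2 with 1 array left out, the 0 without siBach1 day 2 replicate 1. With no filter the median of all probes was 0.17 at day 0, 0.11 in the siControl and -0.15 in the siBach1 differentiation, and -0.15 for the difference of days, which under normexp was -0.13. The cause of these changes was not tested.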
